A study of Trichoderma reesei QM6a with 24 samples.

Results

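The transcripts of Trichoderma reesei, a filamentous fungus known for secreting cellulases, were compared with and without 5 mM L-methionine in constant darkness in the deletion mutant QM6aΔ72004. The comparison rests on 6 of the 24 libraries of the series, 3 of this mutant without and 3 with methionine. They were taken by their labels alone, and all 10879 gene models of the count table were followed. The series is titled after a G-protein coupled receptor and its part in answering methionine, so the question is how much of the response a strain without gene 72004 still shows. Another 4 groups, with 3 libraries each, serve for reference: wild type QM6a in darkness without and with 5 mM methionine, and the same mutant in constant light without and with it. Every culture was mycelium on cellulose as carbon source at 28 °C, so all groups share an inducing carbon source. The sample labels give 72 h and the growth protocol gives 96 h. The mutant is a single labelled strain, and the labels state neither how many transformants it stands for nor whether the 3 libraries of a group are separate cultures. The p-values come from one fit of all 24 libraries in 8 groups, light groups of both genotypes included, which share its estimate of spread. They therefore reflect only how far samples within these groups spread, and that spread may be technical.

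T. reesei degrades cellulose with a secreted mixture of cellobiohydrolases, which cut from chain ends, endoglucanases, which cut within chains, and beta-glucosidases, which split the released cellobiose. Hemicellulases act on the xylan and mannan around the cellulose. The transcription activator XYR1 is required for most of these genes, and heterotrimeric G-proteins and the cAMP pathway are known to tune them in response to light and nutrients. Methionine is a sulphur-containing amino acid and the precursor of S-adenosylmethionine, the general methyl donor of the cell.

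The deleted gene checked the genotype label of the mutant libraries from darkness, not their methionine label. TrE0303W (TRIREDRAFT_72004; unitig_4_consensus 935227 to 936691, 4 exons, coding length 1215) had 0 counts in each of the 6 mutant libraries from darkness, against 26.6 ± 2.73 CPM in the wild type in darkness (SD, n = 3). A second model, TrC0447C (TRIREDRAFT_63200), also had 0 counts in all 6, against 47.4 ± 3.19 CPM in the wild type in darkness. CPM is a model's count relative to the library's total after scaling by TMM factors. The 6 libraries held 16533052 to 20628758 counts. A floor of 3 counts in one of them corresponds to 0.145 to 0.181 CPM before the TMM factors are applied. The CPM values given here include these factors, so this floor is only approximate for them. TMM factors were 0.877 to 0.932 without methionine and 1.046 to 1.098 with it, and the 10 most abundant models took 8.06% to 8.98% of the counts without it and 5.34% to 5.87% with it. Without TMM factors the median log2 fold change of all tested models is 0.29 instead of 0.03, and the calls become 4649 higher and 2507 lower. All changes below are relative to the TMM scaling.

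Methionine changed the abundance of most transcripts in the mutant. Of 9308 models tested with edgeR's quasi-likelihood test at an adjusted p of 0.05, 3683 were higher (39.6%) and 3509 lower (37.7%), together 77.3%. Larger changes were more often upwards: 2227 models (23.9%) rose and 1311 (14.1%) fell by 2-fold or more. For 4-fold or more the numbers were 1246 (13.4%) and 498 (5.35%), and for 16-fold or more 399 (4.29%) and 150 (1.61%). The 3 libraries with methionine did not overlap with the 3 without it for 7282 models (78.2%). Each count of list members below stands against these shares of all tested models. In a principal component analysis of the 6 libraries the first component carried 94.2% of the variance and separated both groups, and the second carried 1.9%. In bulk samples such as these, fewer cells of a type and less RNA per cell cannot be told apart.

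The cellulase list as a whole lost nearly all of its transcripts, though not every member did. Of 23 genes on the cellulase list 20 could be linked to a model and were tested: 18 fell and 2 rose, with a median log2 fold change of −9.07 against 0.03 over all tested models. Their summed level was 33544, 38830 and 39687 CPM without methionine and 301, 288 and 295 CPM with it, a drop from between 3.13% and 3.48% of all counts to between 0.0312% and 0.0324%. In this sum no library of one group came near the other. The smallest falls of single members were those of TrA2104C (−1.40) and TrC1576W (−2.97).

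The cellobiohydrolase gene cel7a (TrG0022C, TRIREDRAFT_123989; unitig_6_consensus 68371 to 70046), the source of the most abundant cellulase of the fungus, stood at 14026, 15900.4 and 16769 CPM without methionine and 8.09, 3.61 and 3.89 CPM with it. The groups did not overlap, and the log2 fold change was −11.55 (SE 0.91, edgeR adjusted p = 4.08e-10). TrG1206C (TRIREDRAFT_72567), also on the cellulase list, went from 4697, 5829.8 and 5924 to 3.23, 1.38 and 2.12 CPM (log2 fold change −11.26). Among the endoglucanase genes, cel7b (unitig_1_consensus 1274731 to 1276180) fell from 852, 931 and 921 to 0.219, 0.106 and 0.177 CPM (−12.33) and cel5a from 1525, 1979.6 and 1892 to 0.656, 0.425 and 0.221 CPM (−12.04). These remaining levels are close to the floor of 3 counts a library. The third, cel12a, stood at 127, 166 and 167 CPM without methionine and had a single count in all 3 libraries with it, a ratio of 9128 between the counts pooled over each group with a 95% counting interval of 1638 to 360575. Its fitted log2 fold change of −12.64 becomes −14.38 without replicate 1 of the methionine group, which held that count.

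Both genes of lytic polysaccharide monooxygenases with a symbol, enzymes that cleave crystalline cellulose by oxidation, fell. cel61a fell from 2575, 2700.1 and 2650.4 to 3.83, 2.34 and 1.77 CPM (−9.98) and cel61b from 1011, 1349.6 and 1323 to 1.15, 0.159 and 0.133 CPM (−11.37, or −12.98 without replicate 1 with methionine). cip1, which encodes a secreted protein with a cellulose-binding module, fell from 1604, 1961 and 1987 to 0.438, 0.319 and 0.618 CPM (−11.93), and all 3 libraries with methionine were under 1 CPM. The esterase gene cip2 was at 0 in 2 of the 3 libraries with methionine (−10.53; −14.43 without replicate 2 and −9.89 without replicate 3 of that group).

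The fitted fold changes of the 4 beta-glucosidase genes with a symbol were smaller in size than those of cel7a, cel7b, cel5a and cel12a. cel3a fell from 382, 490.1 and 452 to 0.273, 0.478 and 0.839 CPM (−9.63). The intracellular beta-glucosidase gene cel1a fell from 1734, 1652 and 1637 to 12.1, 8.18 and 7.51 CPM (−7.50), cel3b from 1838, 2136 and 2127 to 45.8, 42.7 and 35.5 CPM (−5.62) and cel1b from 828, 887 and 924 to 34.6, 33.8 and 35.2 CPM (−4.67). With methionine cel3b and cel1b thus kept more than 30 CPM in every library. The 2 list members that rose were TrE0639W (TRIREDRAFT_53731), from 16.4, 16.5 and 16.4 to 91.00, 107 and 105 CPM (2.62, SE 0.12, edgeR adjusted p = 1.22e-13), and TrC1278C (TRIREDRAFT_27554), from 1.4, 1.31 and 1.24 to 6.62, 8.18 and 7.02 CPM (2.46). In both the groups did not overlap.

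**Figure D1:**
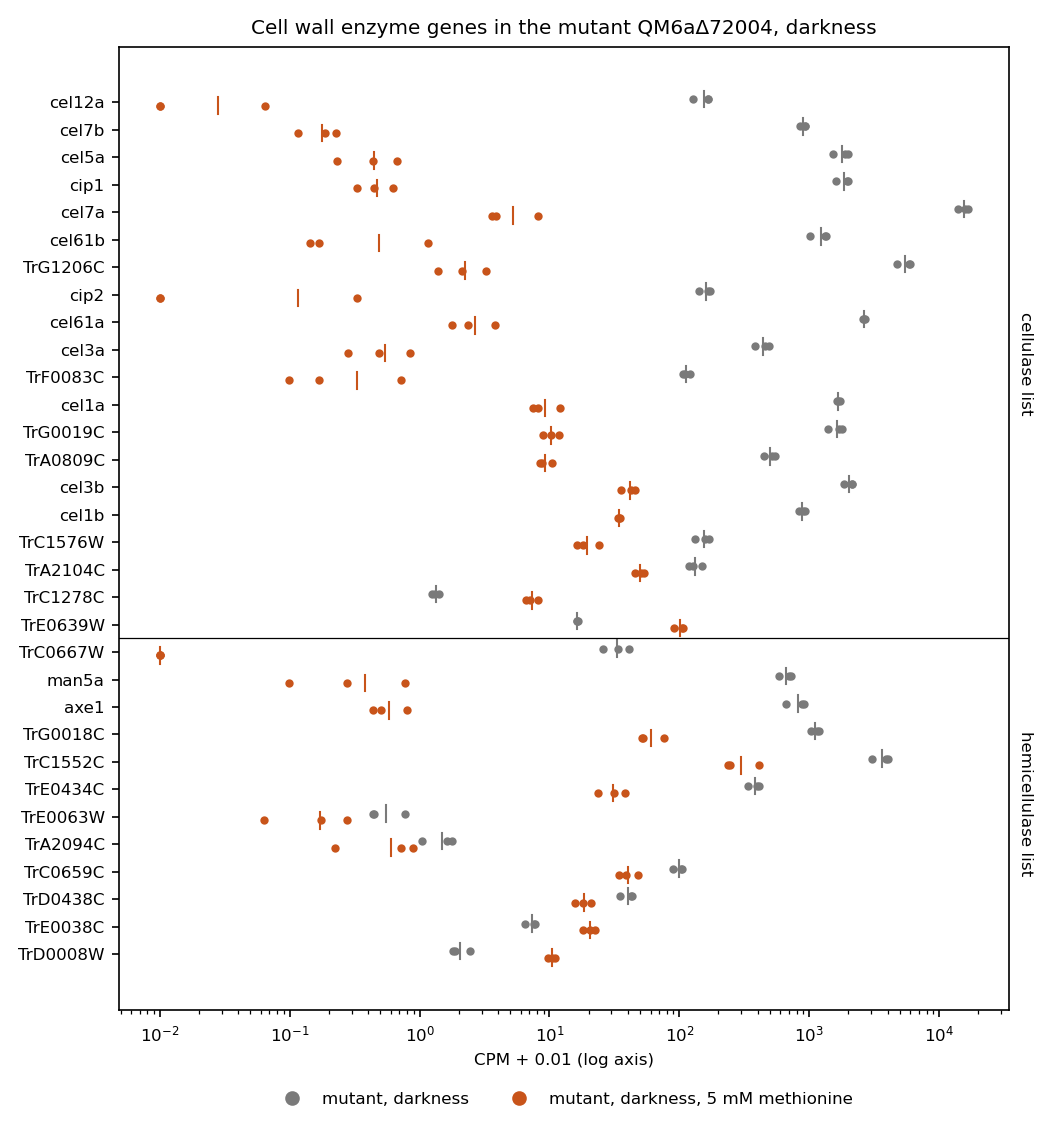
Level of each linked cellulase and hemicellulase gene in the 6 mutant libraries from darkness, in CPM plus 0.01 on a log axis, one point a library and a short line at the mean (grey without, orange with 5 mM methionine). For 18 of the 20 cellulase genes all orange points lie left of the grey points, and for TrE0639W and TrC1278C they lie right of them.

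The hemicellulase list also held falling and rising members. Of 15 genes 12 were linked and tested: 9 fell, 2 rose and 1 was not called, with a median of −2.63, which is the same with the member at 0 counts (below) set to its bound. The sum was 5806, 7371 and 7229 CPM without methionine and 417, 397 and 621 CPM with it. The largest contributor to the sum, TrC1552C (TRIREDRAFT_121127), fell from 3038, 4004 and 3884 to 244, 235 and 408 CPM (−3.62, SE 0.96, edgeR adjusted p = 0.00203), so it stayed above 200 CPM in every library. The acetyl xylan esterase gene axe1, whose enzyme removes acetyl groups from xylan, fell from 663, 907 and 876 to 0.492, 0.425 and 0.795 CPM (−10.43), and the beta-mannanase gene man5a from 587, 717 and 696 to 0.766, 0.265 and 0.0883 CPM (−10.85, or −11.89 without replicate 1 with methionine). TrC0667W (TRIREDRAFT_120229; unitig_2_consensus 2321852 to 2323203) stood at 25.8, 33.4 and 40.7 CPM and had 0 counts in all 3 libraries with methionine, at least 657-fold lower against a floor of 3 counts over the group. TrD0008W (TRIREDRAFT_123283; 2.34) and TrE0038C (TRIREDRAFT_72704; 1.47) rose, from means of 2.04 ± 0.348 to 10.4 ± 0.612 CPM and 7.33 ± 0.702 to 20.3 ± 2.05 CPM. TrA2094C, at 1.77 CPM or less in every library, was not called (−1.29, edgeR adjusted p = 0.0655), but was called lower when only the compared groups were fitted (−1.27). The call of TrE0063W, which was under 1 CPM throughout (−1.64), was lost without replicate 1 or 2 with methionine (−1.64 and −1.26) or replicate 3 without it (−1.34), and its value was −2.24 without replicate 3 with methionine.

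The regulators of these genes moved far less. xyr1, the gene of the main activator, was at 543, 674 and 639.6 CPM without methionine and 189, 163 and 169 CPM with it. The groups did not overlap, and the mean fell 3.56-fold (log2 fold change −1.83, SE 0.07, edgeR adjusted p = 9.66e-15). TrB0812W (TRIREDRAFT_77513), on the regulator list, fell by 1.44 on the log2 scale. creb, named for a deubiquitinating enzyme of carbon catabolite repression in Aspergillus, fell slightly (−0.23), and this direction flips to 0.03 without TMM factors. The other 10 of the 13 genes on the regulator list were not linked.

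The sorbicillin genes, which make a yellow polyketide pigment, lay in a row on unitig_4_consensus. Of 7 genes 6 were linked: 4 fell, 1 rose and 1 was not called. TrE0662C (TRIREDRAFT_43701) dropped from 466, 287 and 346 to 3.01, 2.18 and 1.28 CPM (−7.43, SE 0.49, edgeR adjusted p = 2.13e-11) and TrE0663W (TRIREDRAFT_102497) from 139, 112 and 139.5 to 31.1, 29.05 and 28.8 CPM (−2.13). TrE0664C (−1.79) and TrE0661W (−3.01) also fell from low levels; the call of TrE0661W was lost without replicate 1 without methionine (−2.45), and its value was −3.88 without replicate 2 with methionine. The 2 long models of the row moved least. TrE0659C (coding length 7668) was at 57.3, 55.7 and 39.8 and 66.5, 61.9 and 66.4 CPM (0.35, a call lost without replicate 3 of the group without methionine, at 0.20). TrE0660W (coding length 7902) was at 47.03, 45.05 and 23.3 and 26.9, 25.8 and 28.8 CPM (−0.50, not called, edgeR adjusted p = 0.0598; −0.76 and called without that replicate).

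**Figure D2:**
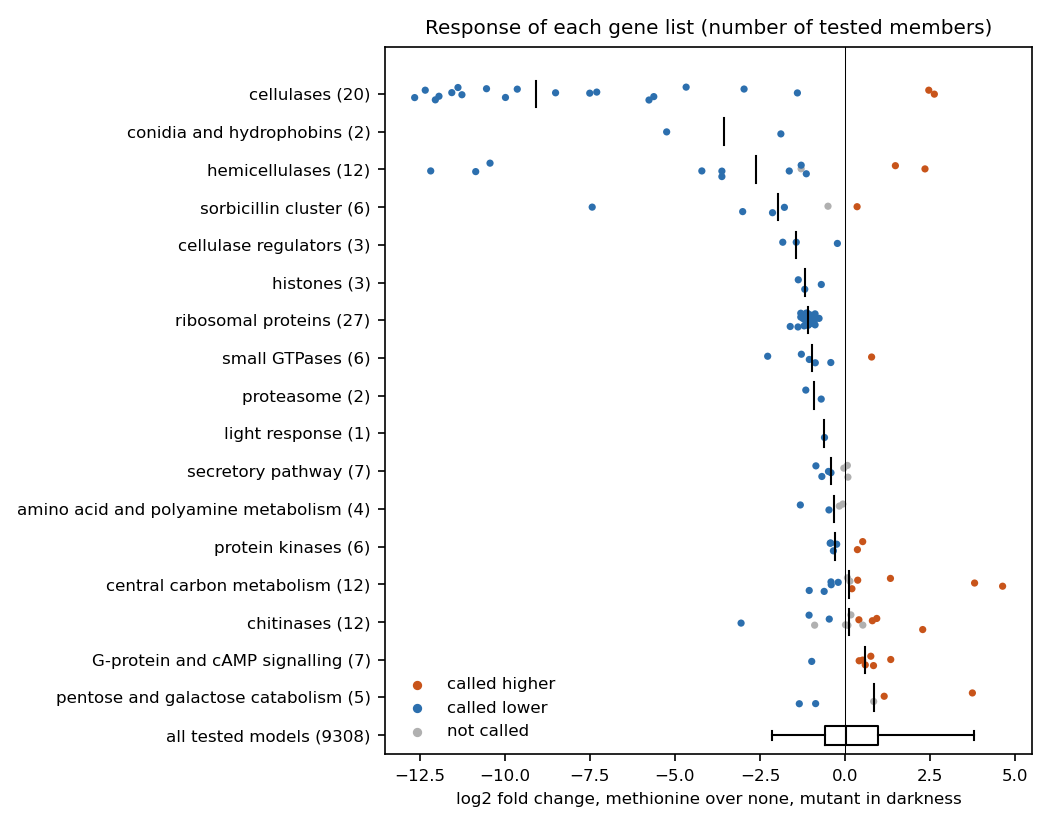
Log2 fold change with methionine in the mutant in darkness (horizontal axis) for every tested member of each gene list, with the number tested in brackets; the black line is the list's median, and the box of all tested models spans the quartiles with whiskers at the 5th and 95th percentile. The cellulase list has the lowest median (−9.07), all 27 ribosomal protein genes lie between −1.61 and −0.77, and the median of all models is 0.03.

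Genes of G-protein and cAMP signalling, by contrast, were mostly higher. Of 10 genes 7 were linked and tested: 6 rose and 1 fell, beside 39.6% and 37.7% of all tested models. In all 7 the groups did not overlap, as in 78.2% of all models. rgs1, which encodes a regulator of G-protein signalling, a class of proteins that speed the switching off of G-protein alpha subunits, rose from 66.3, 47.6 and 53.2 to 143, 138 and 141 CPM (1.34, SE 0.10, edgeR adjusted p = 3.74e-10). The alpha subunit genes moved in different directions. gna3 rose from 71.6, 80.4 and 75.01 to 136, 111 and 135 CPM (0.75) and gna2 from 62.7, 66.3 and 68.3 to 106, 90.4 and 84.7 CPM (0.51), while gna1 fell from 194, 224 and 211 to 114, 101 and 104 CPM (−0.98). Downstream of these subunits, the adenylate cyclase gene acy1 rose (0.41), as did the genes of the catalytic and the regulatory subunit of protein kinase A, pkac2 (0.83) and pkar1 (0.59).

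Of the small GTPase genes 6 of 8 were tested, and 5 fell. rsr1, of the Ras family, had the largest change, from 91.02, 92.8 and 79.6 to 20.6, 16.3 and 17.5 CPM (−2.28, SE 0.10, edgeR adjusted p = 5.39e-14). ran1, whose homologues drive nuclear transport, fell by 1.29 on the log2 scale, and the cell polarity genes rac1, cdc42 and rho3 by 1.05, 0.88 and 0.42, where rho3 was not called without TMM factors (−0.16). The other Ras gene, ras2, rose from 67.8, 76.99 and 82.6 to 129, 130.3 and 129.8 CPM (0.78). Protein kinase genes moved little: 4 of the 6 tested fell, by 0.25 to 0.44, or 2 of 6 without TMM factors, where gsk3 was at −0.08 and not called. mkk1, a MAP kinase kinase, rose (0.51). The higher call of snf1, the kinase of glucose derepression (0.36, edgeR adjusted p = 0.0486), was lost when any one of the 6 libraries was left out (0.33 to 0.40). The fall of pkc1 (−0.25) flips to 0.01 without TMM factors. The blue light receptor gene blr2, the only one of 4 light response genes that was linked, fell from 83.5, 81.8 and 80.5 to 54.96, 52.6 and 51.99 CPM (−0.62).

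Genes of protein synthesis fell together. All 27 ribosomal protein genes that were linked (of 42) were lower, with a median of −1.09 and a range of −1.61 to −0.77, and no group overlapped in any of them. The small-subunit gene rps29 (−1.61, the largest fall) went from 153, 186 and 138 to 54.2, 44.9 and 56.8 CPM, and rps30 (−0.77, the smallest) from 495, 480.1 and 358 to 253, 269 and 261 CPM. The translation elongation factor gene tef1a fell from 11888, 12698 and 13086 to 5938, 5389 and 6042 CPM (−1.12, SE 0.10, edgeR adjusted p = 1.52e-09). cpc2, named for the ribosome-associated protein of general amino acid control in Neurospora, fell by 1.32 on the log2 scale. All 3 linked histone genes were lower, among them hh2a (−1.38) and hh2b (−1.19), and both linked proteasome genes, psa7 (−1.16) and psa3 (−0.70). Of the other amino acid genes, arg2, of arginine synthesis, fell slightly (−0.48; −0.22 and not called without TMM factors), while the glutamate synthase gene glt1 (−0.07) and the tryptophan synthesis gene trp (−0.17) were not called.

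The 2 largest rises in the lists were in genes of the glyoxylate cycle, which lets fungi build sugars from acetate and fatty acids. acu9, named for the malate synthase gene of Neurospora, stood at 96.1, 97.3 and 104 CPM without methionine and 2461, 2514 and 2363 CPM with it. The groups were far apart and each varied little (4.62, SE 0.10, edgeR adjusted p = 1.80e-18). acu3, named for the isocitrate lyase gene of Neurospora, went from 121, 145 and 175 to 2084, 1924 and 2144 CPM (3.80, SE 0.16). The formate dehydrogenase gene fdh1 rose by 1.33, from 107, 93.8 and 90.2 to 293, 232 and 207 CPM. The rest of central carbon metabolism changed little. Of its 12 tested genes (of 20) 5 rose, 5 fell and 2 were not called, namely the glycolytic genes gpd1 (0.07) and pgk1 (0.14). Without TMM factors 5 rose and 2 fell, since cit1 and hxk1 were no longer called (−0.15 and −0.16) and atp1 was at 0.06. The genes of UDP-glucose pyrophosphorylase, ugp1 (−1.06), and glycogen synthase, gys1 (−0.62), both of glucan and glycogen synthesis, fell most. The lower call of atp1, of the mitochondrial ATP synthase (−0.21), was lost without replicate 3 of the group without methionine (−0.17) and also flips to 0.06 without TMM factors.

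Of the pentose and galactose genes, lxr1, named for L-xylulose reductase, rose from 23.8, 16.9 and 20.1 to 274, 273 and 264 CPM (3.74, SE 0.27, edgeR adjusted p = 1.30e-10). The D-xylose reductase gene xyl1 fell from 990.1, 1204 and 1248 to 387, 435 and 531 CPM (−1.35), a call lost without replicate 1 with methionine (−1.25). The gene of the next enzyme, xylitol dehydrogenase xdh1, was at 52.8, 53.1 and 41.5 and 71.8, 84.2 and 107 CPM and was not called (0.84, edgeR adjusted p = 0.0978). It was called higher when only the compared groups were fitted (0.86) and without TMM factors (1.10). In the Leloir pathway of galactose gal7 rose (1.15) and gal10 fell (−0.87).

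Outside these pathways, the thiamine synthesis gene nmt1, named after its fission yeast homologue, rose from 113, 75.1 and 70.7 to 4795, 3796 and 4489 CPM (5.66, SE 0.49, edgeR adjusted p = 1.56e-09). It had the largest rise among models with a symbol and at least 20 CPM. sod1, for superoxide dismutase, rose from 594, 621 and 556 to 1142, 1133 and 1239 CPM (0.99), and mus8, named for a DNA repair gene of Neurospora, from 35.5, 40.1 and 39.9 to 93.5, 82.1 and 81.9 CPM (1.16). The hydrophobin gene hfb3, whose product coats the surface of hyphae or spores, fell from 3468, 3991 and 4110.3 to 99.9, 112 and 94.00 CPM (−5.24, SE 0.33). The labels give mycelium, and of the 4 genes listed for conidia and hydrophobins, the other form a culture could hold, 2 were linked. The other of them, TrD1440W (TRIREDRAFT_82208), stood at 1022, 764 and 650.4 CPM without methionine and 188, 200.02 and 269 CPM with it (−1.89, edgeR adjusted p = 0.00559), so it was present in all 6 libraries and lower with methionine. Its part in the other changes was not tested.

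**Figure D3:**
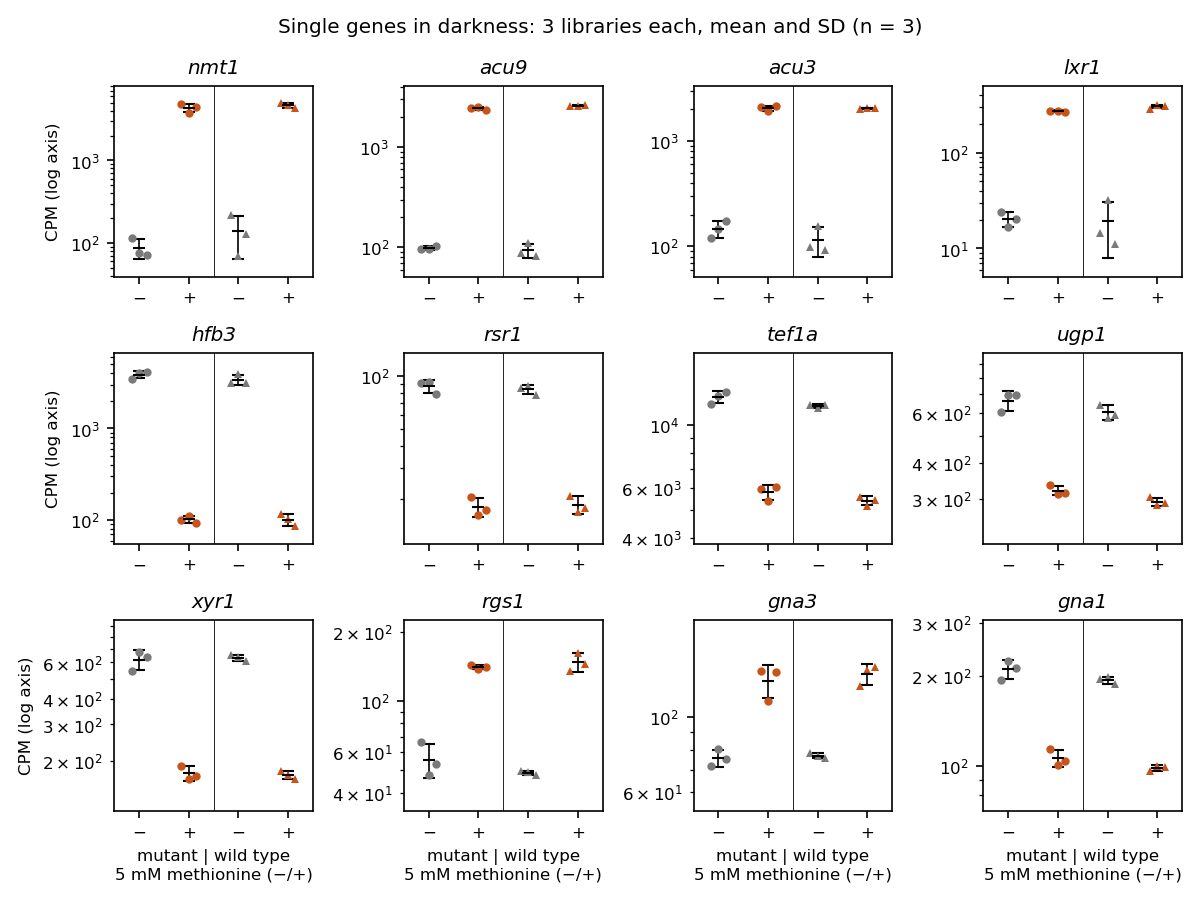
CPM on a log axis of 12 genes in darkness without (−) and with (+) 5 mM methionine, mutant as circles left of the line and wild type as triangles right of it; points are libraries and bars are the mean and SD (n = 3). In every panel both genotypes moved in the same direction, from nmt1, acu9, acu3 and lxr1, which rose, to hfb3, rsr1, tef1a, ugp1, xyr1 and gna1, which fell.

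Chitinase genes, which remodel the fungus's own wall or attack other fungi, showed no common direction: of 17 linked genes 12 passed the filter on low counts, 4 rose, 3 fell and 5 were not called. chi18-13 rose from 2.56, 2.56 and 3.11 to 13.5, 13.8 and 12.6 CPM (2.28, SE 0.15, edgeR adjusted p = 1.90e-11), and chi18-5 (0.93) and chi18-rel2 (0.80) rose less. The calls of the other 4 were lost when a single library was left out. chi18-15 fell from 4.14, 0.562 and 0.759 to 0.0547, 0.159 and 0.398 CPM (−3.06), but −1.58 without replicate 1 of the group without methionine was no longer called, and it was −4.01 without replicate 3 with it. chi18-2 (−1.06) was lost without replicate 3 with methionine (−0.88) or replicate 2 or 3 without it (−0.89 and −1.06), chi18-7 (−0.47) without replicate 2 with methionine (−0.43), both of them also without TMM factors (−0.80 and −0.21), and chi18-3 (0.40) without replicate 1 with methionine (0.24) or replicate 2 without it (0.35). The 5 linked genes that did not pass the filter were at 0.61 CPM or less in every library.

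In the secretory pathway 4 of 7 tested genes fell and 3 were not called, a smaller share of calls than the 77.3% of all tested models. Those that fell act in protein glycosylation and vesicle budding: mpg1, which makes GDP-mannose (−0.86), the mannosyltransferase genes pmt1 (−0.68) and dpm1 (−0.42; −0.16 and not called without TMM factors), and sar1, the GTPase of COPII vesicles (−0.49). The exocytosis genes sso1 (0.06), snc1 (0.08) and sec1 (−0.04) stayed within 0.1 of 0 and were not called. Without TMM factors sso1 and snc1 were called higher (0.32 and 0.34), and sec1 changed sign and was called higher as well (0.22).

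Several of the models that moved the most counts carry no symbol. TrC1130C (unitig_2_consensus 3833116 to 3833518), a short model of coding length 261, stood at 19966, 27403 and 23516 CPM without methionine and 231, 239 and 216 CPM with it. The groups did not overlap (−6.69, SE 0.43, edgeR adjusted p = 1.77e-11). TrC1166C (unitig_2_consensus 3954123 to 3956103) fell from 12142, 13808 and 14596 to 38.8, 23.2 and 25.8 CPM (−8.85) and TrC1121W, on the same contig, from 4562, 4755 and 4818 to 207, 220.04 and 199 CPM (−4.50). Among the rises, TrF0363W (TRIREDRAFT_74282) went from 1855, 1926 and 1797 to 6918, 7207 and 7875 CPM (1.98) and TrD1010C (TRIREDRAFT_46794) from 365, 385 and 384 to 6660.4, 5483 and 5257 CPM (3.94). TrC0964C (TRIREDRAFT_120079), the direct neighbour of mus8, rose from 26.6, 27.8 and 29.7 to 3186, 2923 and 2982 CPM (6.76, SE 0.14). TrA1527C (TRIREDRAFT_46285) differed among the libraries with methionine, at 4357, 3864 and 366 CPM, against 24.6, 4.18 and 15.5 CPM without it (7.60, SE 1.87; 8.19 without replicate 1 of the group without methionine).

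Very few well expressed models were switched fully on or off. At a mean of at least 20 CPM in one group and at most 3 counts over the other, 4 models appeared with methionine and 3 disappeared. TrA0432C (TRIREDRAFT_106258; unitig_0_consensus 1251714 to 1252376) had 0 counts without methionine and 32.05, 31.5 and 24.9 CPM with it, at least 456-fold higher. TrB1599C (TRIREDRAFT_81275) reached 107, 113 and 127 CPM, TrD0875C (TRIREDRAFT_103336) 121, 50.6 and 30.7 CPM and TrG1138W (TRIREDRAFT_56587) 54.1, 59.1 and 60.5 CPM, each from 0, 0.187 and 0, 0, 0 and 0.138 and 0.122, 0 and 0 CPM. The fitted log2 fold changes of these 3 depend on the few counts without methionine: 10.67 becomes 13.97 without replicate 2, 10.40 becomes 13.20 without replicate 3, and 10.18 becomes 12.97 without replicate 1 of that group. TrD0875C was also at 9.67 without replicate 1 with methionine, its highest library. The 3 that disappeared were TrC0667W, cel12a and TrE1278W.

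Some of the rising models were neighbours. Stretches of 5 or more consecutive tested models, each changed by 4-fold or more in one direction, numbered 13, all of them higher, with 72 of the 1246 models that rose at least 4-fold. The run with the highest level, 6 models from TrA2098C to TrA2103W (unitig_0_consensus 6677604 to 6690412, 12.8 kb), had a summed level of 42.5, 43.6 and 40.4 CPM without methionine and 2270.2, 2766 and 2672 CPM with it. Most of it came from TrA2098C, at 26.9, 27.3 and 24.98 and 1787, 2168 and 2131 CPM. Within the run TrA2101C, at under 4 CPM, was at 3.56, or 4.42 without replicate 2 of the group without methionine. On unitig_2_consensus a run of 7 models, TrC1369C to TrC1376C, spanned 12.8 kb (4650388 to 4663180) and went from 14.4, 16.3 and 15.5 CPM to 1532, 1512 and 1640.1 CPM. TrC1374W (TRIREDRAFT_105978) and TrC1371W (TRIREDRAFT_59267) carried most of that rise. TrC1375W in the same run was nearly without counts in the absence of methionine (5.43, or 8.75 without replicate 3 of that group).

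The 5 models from TrB0326W to TrB0330C (unitig_1_consensus 989473 to 1000787, 11.3 kb) rose from 22.6, 26.2 and 23.7 CPM to 836, 874 and 901 CPM, with log2 fold changes between 2.19 and 7.89. The 5 from TrF0575W to TrF0580W (unitig_5_consensus 2092099 to 2101736, 9.6 kb) varied more among libraries, at 181, 58.5 and 94.0 CPM without methionine and 1171, 965 and 402 CPM with it. The groups still did not overlap, and TrF0575W (2.95) and TrF0576W (3.16) were at 3.60 and 3.78 without replicate 1 of the group without methionine. In these 4 runs every model was also higher in the wild type in darkness.

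**Figure D4:**
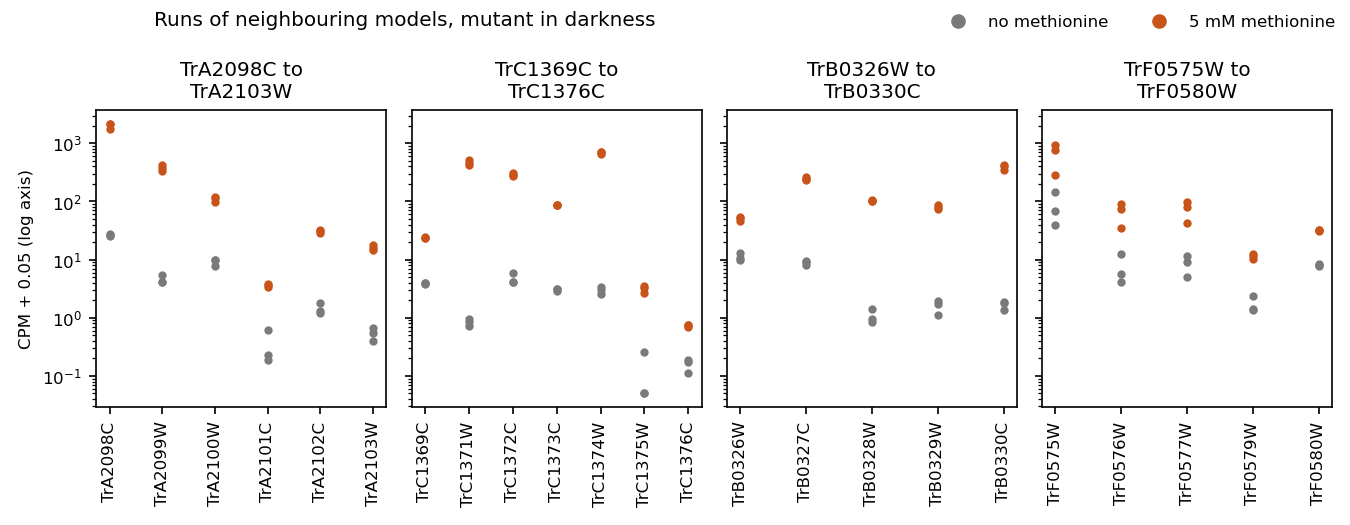
CPM plus 0.05 on a log axis of each tested model in the 4 runs with the highest level, in order along the contig, with one point for each of the 6 mutant libraries from darkness (grey without, orange with 5 mM methionine). In every model all orange points lie above the grey points, and the points of TrF0575W to TrF0577W are spread most widely.

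The wild type gave the reference for how this response differs in the mutant strain. As given above, that strain is a single labelled one and also lacked the counts of another model. The part of the deleted gene itself in differences between the genotypes was not tested. In darkness methionine changed 7041 models in QM6a (75.6%), 3602 higher (38.7%) and 3439 lower (36.9%), and 6523 were called in the same direction in both genotypes, which is 90.7% of the calls in the mutant and 92.6% of those in the wild type. Another 7 were called in opposite directions, all of them higher in the mutant. Across the 9308 models the log2 fold changes of both genotypes had a Pearson r of 0.97, given as a description, since models are not independent replicates. The summed cellulase level was 31309, 34977 and 29453 CPM without methionine and 346, 308 and 324 CPM with it in the wild type, beside the values of the mutant above. The summed hemicellulase level of the wild type was 5410, 6073 and 5278 CPM without methionine and 1867, 1038 and 1076 CPM with it, above the 417, 397 and 621 CPM of the mutant with methionine and without overlap. For no single member of the list was the difference between the responses called. It was −1.99 for TrC1552C (interval −4.59 to 0.60) and −2.45 for axe1 (−4.39 to −0.51). These intervals use the spread estimated over all 8 groups, light included, and not that of the darkness groups alone. They are not adjusted for the number of models.

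The difference between the responses, tested as an interaction of methionine with genotype, was called for 4 of 9308 models (0.043%), and 695 (7.47%) had an unadjusted p under 0.05. DESeq2 called 31, of which 30 were positive and 4 were those of edgeR. For 7113 models (76.4%) the 95% interval of the difference lay within 1 log2 unit of 0, and the median distance from the estimate to its bound was 0.36 over all models. None of the list members above was among the 4. The difference was 0.06 for xyr1 (interval −0.15 to 0.27), −0.17 for acu9 (−0.43 to 0.09) and −0.26 for rgs1 (−0.57 to 0.05). For cellulase genes with few counts left the intervals are wide and leave room for a difference, as for cel7a (−1.44, −3.26 to 0.38). That of cip1 (−1.95, −3.77 to −0.14) did not include 0, though the difference was not called after adjustment. Over the cellulase list the differences ran from −2.09 to 0.30, with median responses of −9.07 in the mutant and −8.18 in the wild type. For the hemicellulase list they ran from −2.45 to 0.04, with medians of −2.63 and −1.44.

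**Figure D5:**
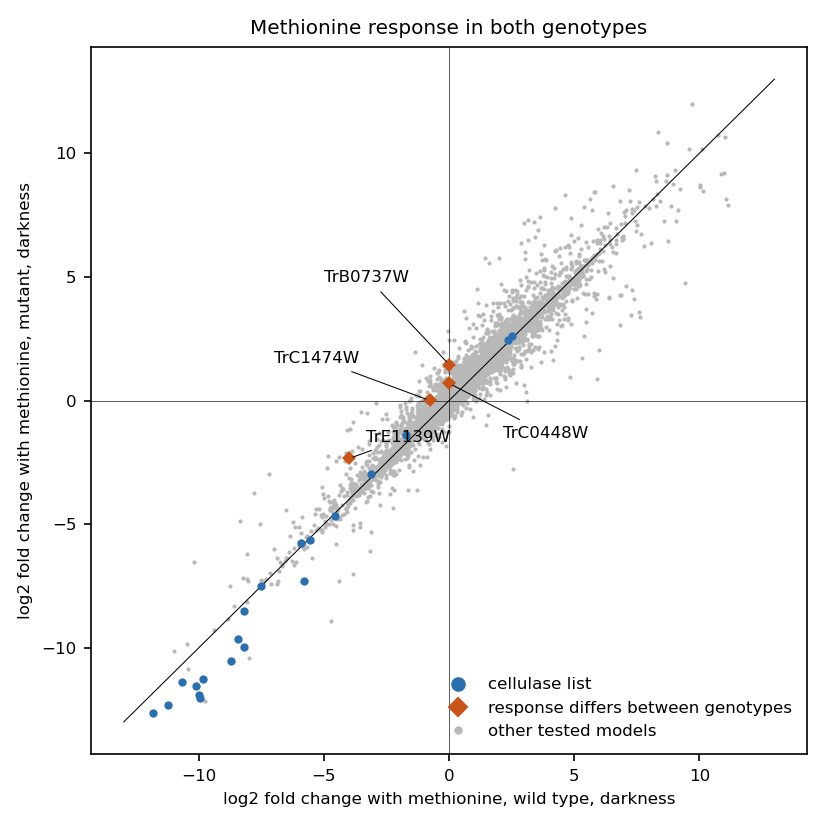
Log2 fold change with methionine in darkness of each of the 9308 tested models, wild type on the horizontal and mutant on the vertical axis, with the line of equal response; blue points are the cellulase list and orange diamonds the 4 models whose responses differed. Most points lie along the line, and all 4 diamonds lie above it.

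The fitted response of all 4 models was more positive in the mutant, and of these calls that of TrE1139W alone held in every alternative. TrE1139W (TRIREDRAFT_102904; unitig_4_consensus 3652214 to 3653777) stood in the wild type at 29.8, 32.00 and 28.2 CPM without methionine and 1.81, 1.91 and 1.91 CPM with it, and in the mutant at 19.1, 22.8 and 23.9 and 4.92, 3.72 and 4.33 CPM. It fell in both genotypes, from a higher to a lower level in the wild type, and the groups of the mutant lay inside those of the wild type. The difference of log2 fold changes was 1.65 (SE 0.19, edgeR adjusted p = 0.000387), or 1.65 with an edgeR adjusted p of 0.00157 with the replicate number as a block. TrB0737W (TRIREDRAFT_121556; unitig_1_consensus 2309608 to 2310071), a short model of coding length 393, was at 7.19, 6.17 and 7.92 and 6.35, 8.31 and 6.82 CPM in the wild type and at 8.29, 9.11 and 8.42 and 21.3, 23.6 and 25.2 CPM in the mutant. It thus rose in the mutant and overlapped in the wild type (difference 1.43, edgeR adjusted p = 0.0453).

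The other 2 differences were smaller. TrC1474W (TRIREDRAFT_76690) went in the wild type from 169, 129 and 169.7 to 92.1, 79.7 and 102 CPM and in the mutant from 130.1, 130.3 and 134 to 121, 131 and 143 CPM, where the groups overlap (difference 0.77, edgeR adjusted p = 0.0453). TrC0448W (TRIREDRAFT_78582) went from 58.5, 60.01 and 65.9 to 61.9, 62.3 and 60.7 CPM in the wild type, where the groups overlap, and from 53.6, 56.3 and 57.6 to 101, 89.7 and 79.7 CPM in the mutant (difference 0.69, edgeR adjusted p = 0.0453). By contig coordinates 496 bases lie between TrC0448W and TrC0447C, the second model without counts in the mutant. The part of that missing neighbour was not tested. With the replicate number as a block 2 models were called and TrB0737W and TrC0448W were not (edgeR adjusted p = 0.122 for both). When only the compared groups were fitted TrC1474W and TrC0448W were not called (edgeR adjusted p = 0.0971 and 0.0698). The calls of TrB0737W, TrC1474W and TrC0448W were lost when most single libraries were left out, with differences of 1.34 to 1.55, 0.68 to 0.83 and 0.60 to 0.72 where they were lost. Leaving out one library gave 1 or 2 calls in all but one case and 22 calls without replicate 2 of the wild type in darkness without methionine.

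The same mutant in constant light answered methionine differently. There 3477 models were higher (37.4%) and 3195 lower (34.3%), together 71.7%. Of the calls 5048 were in the same direction as in darkness and 542 in the opposite one. Of these 217 were higher in darkness and lower in light. The response differed between lighting conditions for 4251 models (45.7%), 2169 (23.3%) with a positive difference (darkness minus light) and 2082 (22.4%) with a negative one. Light and dark libraries have separate blocks of library numbers, so a lighting effect and a batch effect cannot be told apart.

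For the cellulase list 17 of 20 differences were negative and 1 positive. In light alone 8 of the 20 genes were called higher and 2 lower, with a median of 0.59. The summed level in light was already low without methionine, at 1346, 1095 and 1422 CPM, and went to 303, 258 and 389 CPM. This drop of the sum came from cel3b, which made up most of the light level without methionine (1197, 957 and 1298 CPM) and fell to 38.2, 39.7 and 59.2 CPM. cel7a was at 13.2, 7.7 and 7.03 CPM in light and 13.6, 5.14 and 34.6 CPM in light with methionine, so neither group came near the level of darkness. xyr1 in light was at 229, 225 and 229 and 275, 274 and 291 CPM, and its difference between lighting conditions was −2.13 (edgeR adjusted p = 2.45e-12). The hemicellulase sum went in light from 146, 146 and 195 CPM to 2931, 1321 and 30359 CPM, where replicate 3 of light with methionine stood far above the others. Of the hemicellulase list 8 differences were negative and 2 positive.

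Other genes moved in the same direction under both lighting conditions. All 27 ribosomal protein genes fell in light too, with a median of −1.24, and 2 of them differed between lighting conditions. acu9 rose in light from 342, 353 and 326 to 1758, 2070.3 and 1774 CPM (2.46) and nmt1 from 166, 251 and 121 to 6013, 6899 and 6636 CPM (5.19). hfb3 fell there from 1534, 1443 and 1240.5 to 32.7, 50.8 and 122 CPM (−4.36). By contrast, rgs1, which rose in darkness, was at 56.6, 64.1 and 58.5 CPM in light and 77.5, 64.9 and 61.7 CPM with methionine, and the difference was 1.15 (edgeR adjusted p = 2.36e-06). lxr1 was already at 233, 318 and 207 CPM in light without methionine, a level close to that of darkness with methionine, and its difference was 3.35 (edgeR adjusted p = 1.97e-07).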

How the data were processed

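The authors deposited a table of raw counts per gene model, whose reverse stranded read pairs were counted with featureCounts 2.0.1, per the file headers. The submitters' processing notes name HISAT2 2.2.1; the sources used here do not give the genome build. Coordinates are those of the deposited table. From these counts edgeR 4.0.16 (R 4.3.3; TMM, default filter with minimum count 10, one-factor model of the 8 groups, all 24 libraries) tested 9308 models, with Benjamini-Hochberg adjustment over all of them. SEs were taken as the absolute log2 fold change over the root of edgeR's F. Floors and counting intervals cover counting error only. The test was also run on simulated counts in which few models changed, evenly up and down. That run cannot check the TMM scaling where most models change.

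Gene names came from a RefSeq table of another assembly (GCF_000167675.1) with no product names. A model was linked by an identical span with at least 3 neighbours of identical span in the same or reversed order (3903 models). These were counted over the 6 neighbours on each side together. Another 2694 models lay between 2 such links at an identical distance and overlapped 1 reference gene by at least 50%. In all 60.6% of models and 142 of 235 symbols were linked. The rule for named genes takes all linked list members, the 10 largest changes each way, also among models with a symbol and by CPM, the 10 largest interactions, the 4 highest runs and the absent models; its product name part was applied to symbols. Members and lists were chosen with earlier results of these data known. The labels number samples 1 to 3, but same-numbered samples of both mutant groups did not deviate together (residual correlations −0.05, −0.17 and −0.11). Those of wild type and mutant with methionine did for replicates 1 and 3 (0.37 and 0.47). For replicate 2 the value was 0.14, beside 0.09 for mutant replicate 2 with wild type replicate 1. These groups enter the interaction with genotype, so its values with the replicate number as a block are given beside it. The numbers follow the labels, which do not say what they share. DESeq2 1.42.0 served as an alternative.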

Additional observations from a re-analysis of the deposited data

Results flagged for a closer look

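The test of the interaction with genotype called a difference in the methionine response in darkness for TrE1139W (1.65), TrB0737W (1.43), TrC1474W (0.77) and TrC0448W (0.69); these are the mutant's log2 fold changes minus those of the wild type. TrE1139W alone was called in every alternative, and the other 3 lost their call in most fits with one library left out.

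The response of the mutant differed between darkness and light for 4251 models, and the 10 with the largest differences of log2 fold changes (darkness minus light) were as follows. The cell wall genes axe1 (TrE0669C, −15.71), cel3a (TrC1551C, −13.79), TrG1206C (−13.51), cip1 (TrE0670C, −13.19), cel7a (TrG0022C, −12.48), cel61a (TrE0671C, −12.36) and man5a (TrG0832W, −11.77) fell in darkness and stood at low levels in light. Each difference was larger in size than the fall in darkness, so the fitted response in light was a rise. The falls were −10.43 for axe1, −9.63 for cel3a and −9.98 for cel61a. They lay closer to the difference for cel7a (−11.55) and man5a (−10.85). axe1 was at 0.152, 0 and 0 CPM in light and 1.94, 0.392 and 5.34 CPM in light with methionine, so the fitted sizes rest on few counts. TrB1918C (−15.15) fell in darkness from 555, 736 and 731 to 8.26, 8.07 and 13.1 CPM and went in light from 1.11, 0.367 and 1.38 to 54.7, 27.2 and 1467 CPM. TrA0210C (−11.80) fell from 164, 223 and 184 to 5.3, 4.73 and 7.24 CPM and went in light from 2.18, 2.81 and 2.64 to 91.2, 68.7 and 671 CPM. Both light values with methionine were highest in replicate 3, and the differences are −11.50 and −10.02 without it; that of cel3a is −11.09. Without replicate 1 of light without methionine axe1 is at −18.85, cip1 at −14.69, cel61a at −13.35, TrG1206C at −14.61, cel3a at −14.63 and man5a at −14.72. Without replicate 3 of light with methionine axe1 is at −14.67, cip1 at −12.50, cel61a at −11.72 and cel7a at −11.57, and man5a is at −12.80 without replicate 1 of darkness with methionine. TrF0388W (12.36) rose in darkness from 1.4, 0.749 and 0.897 to 63.5, 72.7 and 139 CPM and had 0.253, 0.55 and 0.481 CPM in light and 0 counts in light with methionine.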

How the results depend on the processing

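The number of models called in the mutant in darkness was 7192, and it lay between 6831 and 7338 under all alternatives: RLE normalization, library totals without TMM factors (an alternative chosen after seeing the data), no filter on low counts, the replicate number as a block, the compared groups alone, DESeq2 and each library left out (6920 to 6981). The interaction with lighting was called for 4251 models and stayed between 3836 and 4332. The interaction with genotype was called for 4 models, 2 with the replicate block, 31 with DESeq2, and 1 to 22 with one library left out. With the replicate block the calls in the mutant in darkness numbered 7074 and those of the lighting interaction 3992, and TrA2094C was called (−1.32).

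Of 192 single values for the mutant in darkness 24 lost their call or changed sign in some alternative, 14 of them with one library left out. Without TMM factors the sign changed for creb (0.03), trp (0.09), glt1 (0.19), atp1 (0.06), pkc1 (0.01) and sec1 (0.22). Values near 0 changed sign with one library left out for gpd1 (range −0.10 to 0.18), chi18-6 (−0.05 to 0.10), sec1 (−0.14 to 0.02) and TrC1474W (−0.06 to 0.06), and TrC1474W also without a filter and with the replicate block (−0.00 each). The cause of these changes was not tested. Depth limits the transcripts near the floor, where 3 counts correspond to 0.145 to 0.181 CPM before the TMM factors are applied. There the fitted log2 fold changes of 3 genes move with single libraries with methionine. Without replicate 1 that of cel12a was −14.38 and that of man5a −11.89. Without replicate 2 that of cip2 was −14.43.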

Other observations

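Models near the ends of the contigs leaned upwards in the mutant in darkness. An end was taken as the outermost position of any gene model on the contig, since contig lengths were not used. Of 320 tested models within 100 kb of an end, 164 were higher (51.2%) and 87 lower (27.2%), with a median log2 fold change of 0.73, beside 39.2% and 38.1% of the 8988 models further in, with a median of 0.02. By coding length, of the 2327 longest models (1830 to 29481) 32.2% were higher and 47.2% lower, and of the 2331 models of length 772 to 1224, 44.8% were higher and 32.0% lower. Models with a single exon were higher in 46.4% and lower in 29.1%. No test of these shares was made, since neighbouring models are not independent.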
